A study of Rattus norvegicus with 196 samples.

Results

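The raphe was compared between 4 samples of fluoxetine-treated rats (FT) and 4 samples of control rats (Sham), which are 8 of the 196 samples of 25 brain regions in the series. They were taken by their labels, as all samples of the region Raphe, and carry the replicate numbers 1, 3, 4 and 5 in both groups. FT rats took fluoxetine at 18 mg/kg body weight in their drinking water for 6 weeks, and Sham rats drank water alone for the same time. All were male Long-Evans rats, 2 months old by the labels, which by the study's methods was their age before the 6 weeks of treatment. They had no stress protocol, so that the comparison is one of drug in naive animals and not of recovery from a depressed state. Each sample was a pool of raphe punches from 10 rats, 40 rats per group, so the spread between samples is a spread between pools. A punch of frozen midbrain or hindbrain holds the serotonin neurons together with the glia, fibres and other neurons around them.

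The raphe nuclei are the main source of serotonin for the forebrain. Fluoxetine blocks the transporter that takes serotonin back into these neurons, and the serotonin that then builds up around their cell bodies acts on the autoreceptor encoded by Htr1a, which slows their firing. The hydroxylase that makes serotonin needs tetrahydrobiopterin as a cofactor, and so does tyrosine hydroxylase (Th), the first enzyme of dopamine and noradrenaline synthesis.

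The samples held 5501164 to 15166774 reads assigned to transcripts. The counts are listed by Ensembl transcript without names or coordinates, and 1844 transcripts could be named from the study's own table of transcripts called in several regions of these samples. No position in the genome is therefore given, and the names cover genes that the study had already found changed somewhere, which is not independent evidence that they change here. The defining genes of serotonin neurons, Tph2, Slc6a4 and Fev, have no name in that table and were not analysed here. The Sham raphe samples stood high for the genes of this system that could be named. Among the Sham medians of 25 regions, Gchfr, the feedback regulator of GTP cyclohydrolase, was highest in the raphe at 106 CPM (read counts scaled to the TMM-normalized library size), with 79.7 CPM in the periaqueductal grey (PAG), 29.2 CPM in the ventral tegmental area (VTA), 10.5 CPM in the locus coeruleus (LC) and a median of 6.09 CPM over regions. Qdpr, which regenerates tetrahydrobiopterin, was also highest in the raphe, at 679 CPM. Htr1a was at 3.31 CPM, the 4th highest of 25 regions. Forebrain markers did not rank alike, with Ddn the 21st (2.42 CPM) and Ppp1r1b the 20th (17.4 CPM) but Slc30a3 the 6th (55.1 CPM) and Lamp5 the 4th (313 CPM).

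Both samples of replicate 3 stood apart from the other 6. A single transcript without a name took 36.9% of the counts in its FT sample and 29.1% in its Sham sample, against 6.18 to 12% elsewhere, and their TMM factors were 0.375 and 0.55, against 1.12 to 1.45 elsewhere. FT samples listed fewer transcripts with at least 1 read than their Sham partners in 4 of 4 replicates, also in replicate 1, where the FT sample was the deeper one with 16100 transcripts from 15166774 reads against 16755 from 13918162.

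Of 12550 transcripts tested, 828 (6.60%) were differentially expressed genes (DEGs), with 387 higher (3.08%) and 441 lower (3.51%) in FT. DEGs passed 2 limits in edgeR's quasi-likelihood test, a log2 fold-change (log2FC) of 0.32 or more in either direction and a p adjusted by Benjamini-Hochberg not above 0.1. An FT and a Sham sample with the same replicate number formed a pair in that test. The smallest adjusted p was 0.0426, and 94 transcripts were at or under 0.05. The median fold among DEGs was 2.05, and 55 had an absolute log2FC of at least 2, 20 of them higher and 35 lower in FT. The direction was the same in all 4 pairs for 783 of the 828. In 181 of them the FT and the Sham samples did not overlap at all, while 386 (3.08%) of all transcripts tested were without overlap in either direction, 207 with FT above Sham (1.65%) and 179 with FT below (1.43%).

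The count of DEGs rested on the pairing and on single pools. Without the pairing edgeR called 0 transcripts, with 623 at an unadjusted p under 0.05 (2766 with the pairing), and DESeq2 with the pairing called 1225 of 12918 transcripts (9.48%), 602 higher (4.66%) and 623 lower (4.82%), among them 803 of the 828. Leaving out the pair of replicate 1, 4 or 5 left 117, 1 or 89 DEGs, and leaving out replicate 3 gave 1029. The single transcript called without replicate 4 was that of Th. Of the 86 called genes among those chosen for naming, 66, 8, 84 and 67 lost the call without replicate 1, 3, 4 or 5. Of the 828 DEGs, 527 had the larger mean change in pairs 4 and 5 than in pairs 1 and 3. Pairs 4 and 5 alone gave 2877 calls, 740 of them shared with the 828, and pairs 1 and 3 alone gave 678, of which 239 were shared. Across the 12550 transcripts the log2 ratios of FT to Sham had r = 0.64 between pairs 4 and 5 and r = 0.01 between pairs 3 and 5. The values are given as a description, since transcripts of a library share its depth and composition. Counts of calls below are those of edgeR unless DESeq2 is named, and over all gene lists edgeR called 118 of 512 members tested and DESeq2 171 members.

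The serotonin autoreceptor transcript fell. In the order of replicates 1, 3, 4 and 5, Htr1a was at 3.18, 5.4, 3.14 and 0.801 CPM in Sham and at 1.64, 2.43, 0.485 and 0.178 CPM in FT. It was lower in FT in 4 of 4 pairs, although the groups overlapped, since the Sham sample of replicate 5 lay below 2 FT samples. The log2FC was -1.57 (SE 0.44, adjusted p = 0.0931), and DESeq2 gave an adjusted p of 0.0728. At such low levels a sample holds few reads of the transcript, and the call was lost without replicate 3, 4 or 5, with adjusted p between 0.118 and 0.376. Without replicate 1 the transcript did not pass the count filter and was not tested. In bulk tissue, fewer cells of a type and less RNA per cell cannot be told apart. Htr1a was the only serotonin receptor with a name, and no transcript of the list of serotonin neuron and synthesis genes could be named.

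Of the 4 named genes that make, regulate or recycle tetrahydrobiopterin, 1 was called higher and 0 lower. That share (25%) was no larger than the one among all named transcripts tested (25.0%). The 4 genes had a median log2FC of 0.39, against 0.18 over named transcripts and 0 over all transcripts tested. Gchfr, whose protein binds GTP cyclohydrolase and sets its inhibition by the cofactor, was at 122, 185, 78.7 and 76 CPM in Sham and 270.3, 335, 103 and 112 CPM in FT, in the same order of replicates. It rose in 4 of 4 pairs (log2FC 0.74, SE 0.18, adjusted p = 0.0709), and the change was largest in replicates 1 and 3, where its level was highest. The call was lost when any 1 pair was left out, with adjusted p from 0.11 to 0.219. Spr, sepiapterin reductase of the last step of cofactor synthesis, was at 42.7, 46.7, 13.9 and 10.1 CPM in Sham and 53.8, 64.1, 28.7 and 14.5 CPM in FT. It was higher in 4 of 4 pairs but missed the threshold (log2FC 0.58, SE 0.18, adjusted p = 0.108), and with DESeq2 it passed at 0.0971. Pts, which acts just before Spr, and Qdpr did not move one way: their log2FC were 0.19 (SE 0.33) and -0.10 (SE 0.24), each with 2 of 4 pairs higher.

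**Figure D1:**
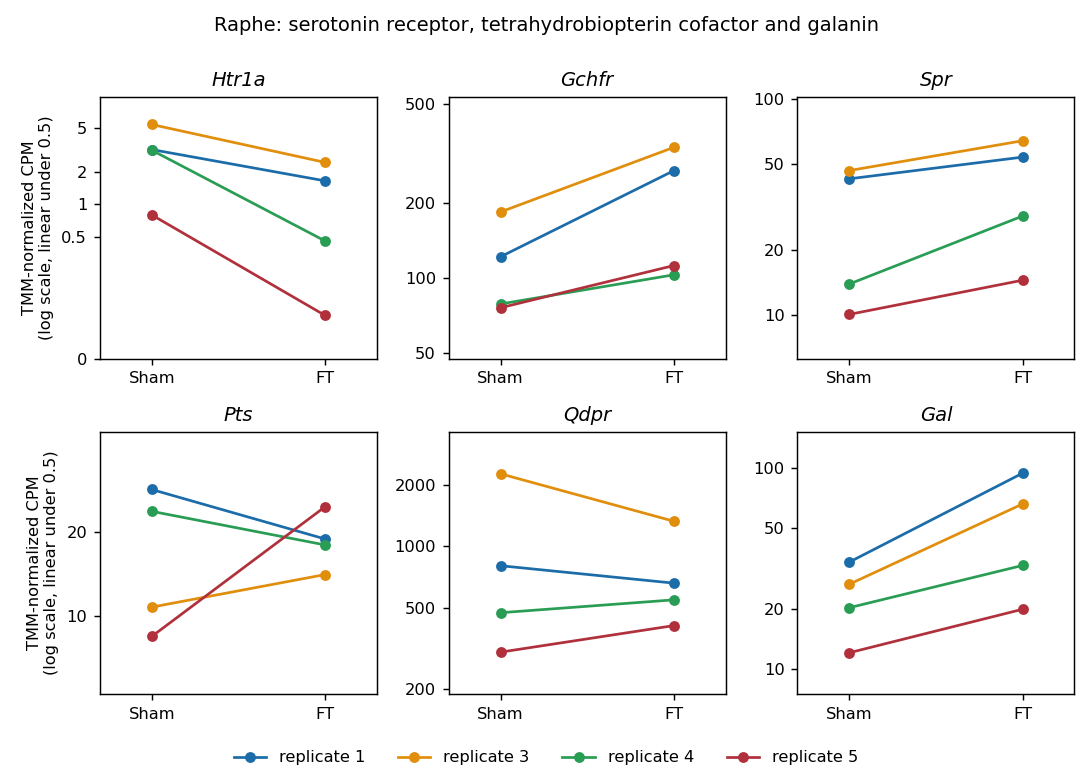
TMM-normalized CPM (log scale, linear under 0.5) of 6 genes in the raphe, with a line from the Sham to the FT sample of each replicate. Htr1a falls and Gchfr, Spr and Gal rise along all 4 lines, while the lines of Pts and Qdpr run both ways.

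Among 17 tested genes of neuropeptides and their secretory granules, 1 was called higher and 3 lower (median log2FC -0.07). That share (23.5%) was no larger than the one among all named transcripts tested (25.0%). Gal encodes galanin, a peptide that serotonin and noradrenaline neurons of the rat make beside their amine. It was at 34, 26.4, 20.2 and 12.1 CPM in Sham and 93.8, 66, 32.7 and 19.9 CPM in FT, a rise in 4 of 4 pairs (log2FC 1.05, SE 0.19, adjusted p = 0.0473). In pairs 1 and 3 alone its log2FC was 1.39, and in pairs 4 and 5 alone 0.72. Chga, chromogranin A of dense-core vesicles, fell from 118, 272, 56.7 and 12.7 CPM to 36.5, 184, 17.3 and 6.23 CPM (log2FC -1.25, SE 0.22, adjusted p = 0.0473). Both groups spanned more than their difference, and the fall appears only within pairs. Ghrl, the ghrelin precursor, was at 2.16 to 7.69 CPM in Sham and 0.971 to 1.82 CPM in FT with no overlap (log2FC -1.89, SE 0.39, adjusted p = 0.0567). Avp, Oxt and Npvf did not pass the count filter of edgeR, with 0 to 25 reads per sample.

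Genes that mark other neurons of the region differed between pairs as much as between groups. Th was at 179 and 137 CPM in Sham of replicates 1 and 3 and at 32.8 and 22.8 CPM in their FT samples, but at 2.7 and 6.01 CPM in Sham and 2.3 and 2.05 CPM in FT of replicates 4 and 5. Its fall (log2FC -1.92, SE 0.34, adjusted p = 0.0473) was -2.52 in pairs 1 and 3 alone and -0.94 in pairs 4 and 5 alone, where it missed the threshold (adjusted p = 0.132). Slc6a3, the dopamine transporter, did not pass the count filter of edgeR and was listed with 93, 61, 5 and 14 reads in Sham and 0, 5, 0 and 0 reads in FT. DESeq2, which kept it, called it lower (adjusted p = 0.021). Of the 2 dopamine and noradrenaline markers that edgeR tested, Th was called and DRD2 was not (log2FC 0.19), and their summed level was 10.6 to 193 CPM in Sham and 9.71 to 51.8 CPM in FT. Rln3, the relaxin-3 gene of the nucleus incertus below the caudal dorsal raphe, was at 23.2, 16.2, 0.349 and 0.961 CPM in Sham and 6.93, 8.25, 0.243 and 0 CPM in FT (log2FC -1.60, SE 0.45, adjusted p = 0.0933). Thus the 2 genes were abundant in the pools of replicates 1 and 3 and nearly absent in those of replicates 4 and 5.

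The cerebellar granule cell gene Gabra6, a GABA-A receptor subunit, was at 3.12, 7.28, 0.697 and 0.481 CPM in Sham and 7.22, 13.6, 22.6 and 2.14 CPM in FT (log2FC 2.15, SE 0.60, adjusted p = 0.0896). Neurod1, a transcription factor of the same cells, was at 7.42, 14.6, 1.39 and 0.721 CPM in Sham and 14.9, 25.2, 6.06 and 0.98 CPM in FT (log2FC 1.12, SE 0.31, adjusted p = 0.0871). Both rose in 4 of 4 pairs and were the 2 of 8 tested cerebellar markers that were called, with none lower. Their share (25%) was that of all named transcripts tested (25.0%). Of the 8 markers 7 had a positive log2FC, but Cbln1 (0.31), Gabrd (0.04) and Grm4 (-0.08) were higher in 2 of 4 pairs only. The summed level of the list was 146 to 629 CPM in Sham and 253 to 601 CPM in FT, most of it Pvalb. In Sham, Gabra6 and Neurod1 were highest in the PAG among 25 regions. Ttr, of the choroid plexus, was level in replicates 1 and 3 and lower in FT in replicates 4 and 5 (106 and 403 CPM in Sham, 9.1 and 19.9 CPM in FT), with an adjusted p of 0.183. Of 7 tested choroid plexus and ependymal markers edgeR called none, while DESeq2 called Mns1 (log2FC 0.87 in edgeR, adjusted p = 0.0672 with DESeq2) and Ccdc39 (0.83, adjusted p = 0.0701 with DESeq2) higher, and the summed level was 88.1 to 485 CPM in Sham and 85.6 to 141 CPM in FT. The part that the tissue content of the punches has in the results for Htr1a, Gchfr, Gal and the other genes was not tested.

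**Figure D2:**
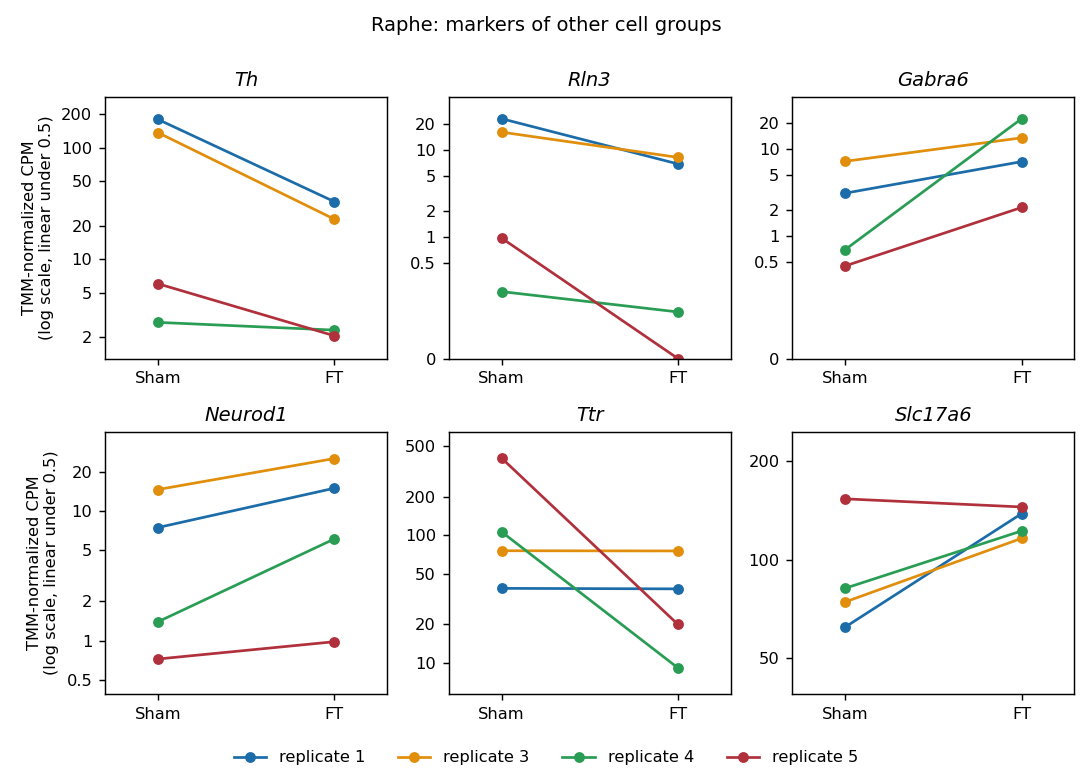
TMM-normalized CPM (log scale, linear under 0.5) of 6 genes that mark other cell groups, with a line from the Sham to the FT sample of each replicate. Th and Rln3 are high only in replicates 1 and 3, Gabra6 and Neurod1 rise along all 4 lines, Ttr falls in replicates 4 and 5 only, and Slc17a6, the glutamate transporter of subcortical neurons, was not called.

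Markers of glia and vessels were mostly not called. The counts below stand beside a share of 25.0% called among all named transcripts tested, 11.9% higher and 13.1% lower. In oligodendrocytes 1 of 18 tested markers was lower and 0 higher (median log2FC -0.03), namely Erbb3 (log2FC -1.63, SE 0.37, adjusted p = 0.0618). The summed level of the list was lower in FT in 4 of 4 pairs, at 3990 to 5080 CPM against 5080 to 8030 CPM in Sham, and most of it was Apod (log2FC -0.75, adjusted p = 0.139). Of 13 astrocyte markers 3 were lower and 0 higher (median log2FC 0.00): Kcnj10, the potassium channel Kir4.1, the GABA transporter Slc6a11 and Daam2. The summed level was 2020 to 24000 CPM in Sham and 1420 to 25200 CPM in FT, the highest in each being replicate 3. Among 9 microglia markers (median 0.07) Lgmn and Selplg were lower, and of 9 vascular and blood markers Bgn was lower (median -0.23). The summed levels of these lists were 180 to 295 and 290 to 1300 CPM in Sham and 189 to 239 and 305 to 1440 CPM in FT. Of 13 forebrain markers 2 were higher, Nrgn and Neurod1 (median 0.21), with sums of 432 to 526 CPM in Sham and 374 to 536 CPM in FT.

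The largest rise was that of Pde6h, the inhibitory subunit of the cone photoreceptor phosphodiesterase. It was at 0.167, 0, 0.436 and 0.961 CPM in Sham and at 1.35, 1.46, 17.9 and 11 CPM in FT, with all FT samples above all Sham samples (log2FC 4.08, SE 0.49, adjusted p = 0.0426). FAM24A (log2FC 2.61, SE 0.36) went from 0.167 to 2.32 CPM in Sham to 0.528 to 19 CPM in FT. RGD1310641 (2.45, SE 0.60) was at 0.279 to 2.64 CPM in Sham and 4.37 to 7.69 CPM in FT, without overlap. Angptl6, a secreted angiopoietin-like protein, rose from 3.12, 0.27, 4.53 and 3.6 CPM to 5.7, 1.46, 56.6 and 23.6 CPM (2.44, SE 0.45). Paip1, which binds the poly(A)-binding protein in translation, was at 47.2, 38, 109.7 and 156 CPM in Sham and 113, 65.1, 1374 and 852 CPM in FT (2.04, SE 0.43). For Jag1, a ligand of Notch, the samples of replicates 4 and 5 were at 19.9 and 28.9 CPM in Sham and 155 and 92.4 CPM in FT, and those of replicates 1 and 3 at 8.15 and 1.89 against 17.2 and 6.31 CPM (1.89, SE 0.30). Nek1, a kinase gene of the primary cilium, had a log2FC of 1.88 (SE 0.45). With Gabra6 these were the 8 largest rises among named DEGs that were higher in 4 of 4 pairs, with adjusted p from 0.0426 to 0.0896. All of them except RGD1310641 differed most in replicate 4.

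The 8 largest falls were led by ion channels. Kcna2, the axonal potassium channel Kv1.2, was at 6.64, 18.3, 10.6 and 9.69 CPM in Sham and 0.881, 7.77, 1.33 and 0.802 CPM in FT (log2FC -2.66, SE 0.39, adjusted p = 0.0426). Kcnj10 was at 4.46, 14.3, 13.1 and 9.29 CPM in Sham and 0.235, 4.85, 1.7 and 2.05 CPM in FT (-2.62, SE 0.40, adjusted p = 0.0426). For both, the FT sample of replicate 3 was the only one that reached the Sham range. Nr3c2, the mineralocorticoid receptor, was at 3.91, 2.97, 6.19 and 4.16 CPM in Sham and 0.0587, 0.971, 1.46 and 1.34 CPM in FT, without overlap (-2.52, SE 0.59, adjusted p = 0.0665). The others were Thsd7b (-2.51, SE 0.61), the ubiquitin-conjugating enzyme Ube2g2 (-2.42, SE 0.68), the actin-binding Cotl1 (-2.39, SE 0.40), Btbd2 (-2.39, SE 0.58) and the kinase Stk32b (-2.36, SE 0.52), with adjusted p from 0.0473 to 0.0933. In replicate 3 Ube2g2 was nearly level, at 10.8 CPM in Sham and 10.7 CPM in FT. Among transcripts without a name, the largest changes by the same rule were a rise of ENSRNOT00000075747 (2.93, SE 0.53) and a fall of ENSRNOT00000051754 (-4.56, SE 0.85), the latter with 64, 9, 92 and 26 reads in Sham and 0, 3, 1 and 1 in FT.

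**Figure D3:**
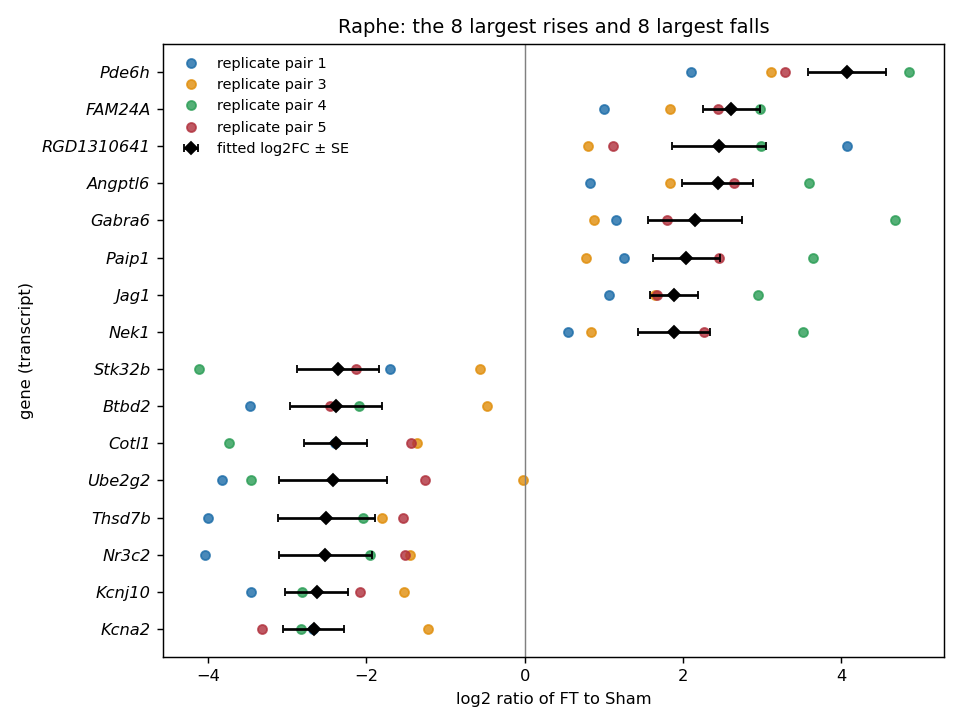
Log2 ratio of FT to Sham in the raphe for the 8 largest rises and the 8 largest falls among named DEGs. Coloured points are the 4 replicate pairs and black diamonds the fitted log2FC with its standard error (Pde6h 4.08, Kcna2 -2.66). The point of replicate pair 3 lies nearest to 0 for most genes.

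Named transcripts as a whole were called more often than others, 454 of 1816 (25.0%, 11.9% higher and 13.1% lower) against 374 of 10734 (3.48%), since the naming table had been chosen for change. The shares of gene lists are therefore read beside the named transcripts, whose median log2FC was 0.18.

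Genes of energy metabolism mostly had positive log2FC. Of 41 tested genes of the respiratory chain and ATP synthase, 33 had a positive log2FC (median 0.40, against 0.18 over named transcripts). Of the 41, 5 were called higher (Atp5j2, Usmg5, Ndufa5, Atp5i and NDUFB4) and 1 lower (Uqcrc2). That was 14.6% in all, below the 25.0% among named transcripts. DESeq2 called 13 higher and 1 lower. Atp5j2, a subunit of the membrane part of ATP synthase, was at 381, 618, 243 and 358 CPM in Sham and 816, 1160.3, 984 and 831 CPM in FT, without overlap (log2FC 1.31, SE 0.23, adjusted p = 0.0473). Ndufa5, a complex I subunit, was at 200.1 to 408 CPM in Sham and 422 to 624 CPM in FT, also without overlap (0.80, SE 0.18, adjusted p = 0.0629). The summed level of the list was nevertheless higher in FT in 2 of 4 pairs only. The mitochondrial ribosome had 5 of 26 members higher and none lower (median 0.55): Mrps18c, Mrpl33, Mrpl53, Mrps30 and Mrps34. DESeq2 called 8 higher and none lower. Mrps18c was at 78.7, 103, 54.8 and 78.4 CPM in Sham and 138, 171, 149 and 130.3 CPM in FT, and Mrpl33 at 58.1 to 85.9 CPM in Sham and 120.3 to 143 CPM in FT (log2FC 0.93, SE 0.18, and 0.81, SE 0.16). The groups of both were apart, and the summed level of the 26 members was higher in FT in 4 of 4 pairs, 2170 to 3790 CPM against 1450 to 1970 CPM. None of the 9 tested genes of mitochondrial protein import (median 0.47) and none of the 8 of the tricarboxylic acid cycle and glycolysis (median 0.28) was called by edgeR, while DESeq2 called 1 higher and 1 lower of the former and none of the latter. Immp1l (log2FC 0.58, SE 0.18) and Eno3 (0.85, SE 0.26) came nearest, with adjusted p of 0.116 and 0.108.

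Machinery that makes and removes proteins moved both ways. Of 29 cytosolic ribosomal protein genes 2 were higher (Rps2 and Rps14) and 1 lower (Rpl14), with a median of -0.17. Ribosomal protein genes have near-identical pseudogenes, so their counts are uncertain. Of 20 translation factors 4 were higher and 1 lower (median 0.23), with Eif5 at 140.1 to 308 CPM in Sham and 318 to 394 CPM in FT (log2FC 0.87, SE 0.21) and Eif4a1 lower (-0.71, SE 0.16). Ubiquitin conjugation and removal had 10 of 53 members higher and 7 lower (median 0.11). Uba6, an activating enzyme at the head of the ubiquitin cascade, rose from 27.5, 19.2, 97.5 and 154 CPM to 64.5, 40.3, 549 and 493 CPM (1.64, SE 0.25, adjusted p = 0.0426). The ligase gene Ube3a rose from 59.8, 57.5, 153 and 236 CPM to 139.9, 116, 705 and 532 CPM (1.41, SE 0.23, adjusted p = 0.0473). Otub1, a deubiquitinase, was at 524, 378, 365 and 261 CPM in Sham and 1032, 383, 1543 and 818 CPM in FT, so that it was level in replicate 3 and higher in the others (1.19, SE 0.32, adjusted p = 0.0856). The RING-finger gene rnf141 fell without overlap, from 13 to 32.5 CPM in Sham to 4.29 to 9.97 CPM in FT (-1.73, SE 0.28, adjusted p = 0.0473). Of 6 proteasome genes, Psmb10 was higher (0.82, SE 0.16, adjusted p = 0.0531), and of 13 endoplasmic reticulum chaperones, Dnajb9 (0.76, SE 0.17, adjusted p = 0.0636), with no member of either called lower by edgeR (medians 0.20 and 0.34). DESeq2 called 3 chaperones higher and 2 lower, the latter Ficd (log2FC -2.37 in edgeR, adjusted p = 0.0228 with DESeq2) and Erp29 (-0.66, adjusted p = 0.0614 with DESeq2).

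In the nucleus, 5 of 41 chromatin regulators were higher and 5 lower (median 0.12), and 8 and 10 with DESeq2. Smarca5, the ATPase of ISWI remodelling complexes, rose from 61.4, 44.2, 101 and 176 CPM to 145, 121, 896 and 582 CPM (log2FC 1.88, SE 0.31, adjusted p = 0.0473). Sap30l, of the Sin3 histone deacetylase complex, was at 12.2 to 25.4 CPM in Sham and 35.6 to 55.4 CPM in FT (1.31, SE 0.25, adjusted p = 0.052), without overlap. Trim28, a corepressor that recruits histone methylation, was at 77.2, 60.7, 52.8 and 61.7 CPM in Sham and 102, 76.7, 215 and 184 CPM in FT (1.10, SE 0.29, adjusted p = 0.0797). In pairs 1 and 3 alone the log2FC of Trim28 was 0.36, and in pairs 4 and 5 alone 1.82. Cbx3 and Atrx were the other 2 called higher, and Sirt2, Dmap1, Bcl7a, Kmt2a and Prmt2 were called lower. Sirt2, a deacetylase abundant in myelinating cells, fell from 288, 344, 172 and 27.2 CPM to 113, 158, 68.2 and 20 CPM (-1.07, SE 0.20, adjusted p = 0.0483).

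Pre-mRNA splicing had 9 of 34 members higher and 5 lower (median 0.39). Srsf2 (1.03, SE 0.21), Arglu1 (1.01, SE 0.20) and Luc7l2 (0.78, SE 0.16) were higher in 4 of 4 pairs, with adjusted p from 0.0542 to 0.0556. Nhp2l1 was lower without overlap, at 63.6 to 85.1 CPM in Sham and 26.5 to 49.2 CPM in FT (-1.08, SE 0.16, adjusted p = 0.0426). A second transcript named NHP2L1, which may share reads with it, was also lower, so that the 5 falls stand for 4 genes. Of 8 circadian output and immediate early genes 3 were higher and 1 lower (median 0.91). Dbp, a clock-driven transcription factor, was at 33.3 to 42.6 CPM in Sham and 45.6 to 133 CPM in FT, without overlap (1.23, SE 0.28, adjusted p = 0.0618). Tsc22d2 (1.76, SE 0.37) and DEPP (1.89, SE 0.45) were higher, DEPP in 3 of 4 pairs, and Txnip was lower (-0.56, SE 0.16, adjusted p = 0.0953, and 0.105 with DESeq2). By the methods of the study, rats of both groups were killed within the same hours of the late morning.

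Genes of the synapse and the cell surface were called lower more often than higher. Of 22 genes of the synaptic vesicle and release, 6 were lower and 0 higher (median -0.57): Pacsin1, Amph, Syt11, Napb, Ap2a1 and Scamp5, most of them of endocytosis and membrane fusion. The summed level of the 22 genes was higher in FT in 2 of 4 pairs. Syt11 was at 138, 139.8, 184 and 106 CPM in Sham and 48.3, 111, 53.7 and 35.6 CPM in FT (log2FC -1.31, SE 0.24, adjusted p = 0.0473). Amph, amphiphysin of clathrin-mediated endocytosis, was at 23.8, 28.1, 36.4 and 13.1 CPM in Sham and 5.34, 21.8, 9.82 and 3.21 CPM in FT (-1.65, SE 0.30, adjusted p = 0.0473). Napb, a partner of the fusion ATPase NSF, was nearly level in replicate 3, at 34 and 32 CPM, and lower in the others, from 12.9, 43.1 and 40.6 CPM to 5.05, 7.03 and 9 CPM (-1.59, SE 0.36, adjusted p = 0.0618). The replicate 3 samples were thus again the ones that differed least.

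Adhesion and axon guidance had 8 of 27 members lower and 1 higher, with 24 of 27 log2FC below 0 (median -0.67) and a summed level below that of Sham in 4 of 4 pairs, 515 to 894 CPM against 791 to 943 CPM. Unc5b, a netrin receptor, fell from 27.8, 18.9, 15.7 and 4.57 CPM to 4.34, 16.5, 2.67 and 1.16 CPM (-1.90, SE 0.40, adjusted p = 0.0576). Cntn1, a contactin of axons, was at 69.8, 101, 139 and 149 CPM in Sham and 45.8, 79.1, 76.3 and 84.1 CPM in FT (-0.67, SE 0.16, adjusted p = 0.0686). The exception was Efnb3, an ephrin, which was called higher. Tubulin and actin genes had 6 of 22 members lower, with Tubb3 (-1.11, SE 0.21), Tuba1c (-1.04, SE 0.21), Tppp (-1.89, SE 0.31) and Cotl1 among them, and 2 higher (median -0.19). Tubulin genes are near-identical in sequence, so reads may have been split between them.

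Receptors and channels of fast transmission had few members with names. Of 9 GABA and glycine genes 3 were lower and 1 higher (median -0.84). Gad2, which makes GABA, was at 46.4 to 56.8 CPM in Sham and 19 to 42.2 CPM in FT, without overlap (-0.84, SE 0.23, adjusted p = 0.0856). Glra1, the glycine receptor subunit of hindbrain and spinal cord, fell from 9.71, 38.6, 14.3 and 11.7 CPM to 3.93, 26.7, 5.34 and 5.88 CPM (-1.06, SE 0.22, adjusted p = 0.0574). Slc6a11 was the third (-1.40, SE 0.30), and Gabra6 the one called higher. Of 7 glutamate genes Grid1 was lower (-0.84, SE 0.23, adjusted p = 0.0866) and none higher (median -0.24), and Slc17a6 was not called (0.57, SE 0.21, adjusted p = 0.155). Of 17 potassium, sodium and calcium channel genes 3 were lower and 0 higher (median -0.35), namely Kcna2, Kcnj10 and Scn8a, the sodium channel of the axon initial segment (-1.44, SE 0.29, adjusted p = 0.0554). DESeq2 called 5 lower and 1 higher, and the summed level of the channel genes was higher in FT in 3 of 4 pairs. Of 10 calmodulin and calcium kinase genes 1, Nrgn, was higher and none lower (median 0.32).

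Membrane lipid and methyl donor metabolism had 5 of 24 members lower and 1 higher (median 0.03). Mat2a makes the methyl donor S-adenosylmethionine and was at 18.3, 46.4, 68 and 67 CPM in Sham and 2.94, 23.8, 9.1 and 14.6 CPM in FT (-2.21, SE 0.29, adjusted p = 0.0426). Elovl5, a fatty acid elongase, was at 19.9 to 63.5 CPM in Sham and 4.99 to 13.4 CPM in FT, without overlap (-1.90, SE 0.34, adjusted p = 0.0473). Acat2 and Lpcat3 were also lower. Cds2, which makes the precursor of phosphoinositides, was lower in replicates 1, 4 and 5 (4.8, 5.4 and 6.17 CPM in Sham, 1.12, 0.606 and 0.712 CPM in FT) and slightly higher in replicate 3 (30.2 and 32.5 CPM), with a log2FC of -1.80 (SE 0.51, adjusted p = 0.0933). Ahcy, which clears the product of methyl transfer, was called higher. Ormdl3 did not pass the count filter of edgeR, with 94, 25, 36 and 5 reads in Sham and 4, 6, 2 and 0 in FT, and DESeq2 called it lower (adjusted p = 0.00109).

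**Figure D4:**
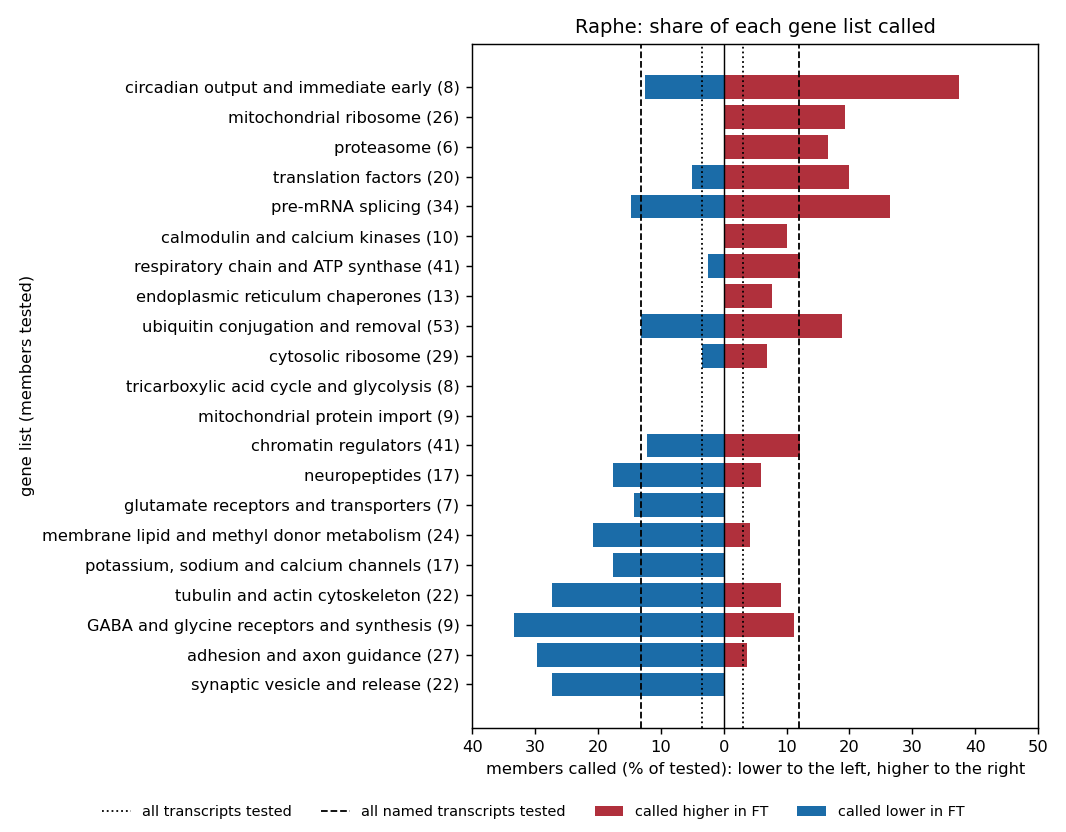
Share of each gene list called higher (red, to the right) or lower (blue, to the left) in FT raphe, as a percentage of the members tested, whose number is in brackets. Dotted lines mark all transcripts tested (3.08% higher, 3.51% lower) and dashed lines all named transcripts tested (11.9% and 13.1%). Synaptic vesicle genes (27.3% called) and channel genes (17.6%) have bars to the left only, and mitochondrial ribosome genes (19.2%) to the right only. Adhesion genes extend mostly to the left (33.3%). Lists with bars on both sides include those with the largest shares, as splicing (41.2%) and circadian genes (50%).

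The raphe response was set beside that of 3 brainstem regions: the VTA, the PAG, which lies around the dorsal raphe, and the LC, the noradrenaline nucleus. Fitted alone, the VTA and PAG had no transcript past the threshold (0.00% of 12779 and 13257) and the LC had 3 (0.0235%). SNT, the solitary tract nucleus, was not in these contrasts. Fitted alone with 4 pairs, it had 511 of 12277 (4.16%), of which 177 were raphe DEGs with the raphe's sign. When the FT minus Sham difference of the raphe was tested against that of each region in one edgeR fit, no transcript differed at an adjusted p of 0.1 (0.00% of 13543, 13925 and 13690 tested), with 1150, 611 and 987 at an unadjusted p under 0.05. The smallest adjusted p was 0.573 for the VTA, 0.976 for the PAG and 0.24 for the LC. Without replicate 5 the contrast with the PAG gave 6 transcripts. These tests do not show that the regions respond alike, and they give no gene as particular to the raphe. For Gal the difference from the VTA was 0.99 on the log2 scale, from the LC 0.74 and from the PAG 0.56. Kcna2 had a log2FC of -1.20 in the VTA, -2.08 in the PAG and -0.45 in the LC, and Angptl6 of 1.92, 2.76 and 1.49.

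The raphe DEGs had the same sign in most other regions. Of the DEGs tested in each of the 24 other regions, a median of 88% had the raphe's sign, from 50.9% in NaCcore, the core of the nucleus accumbens, to 98.7% in Arc, the arcuate nucleus. The fits of Arc and MPOA rest on replicates 4 and 5 alone, and over the 21 regions with 4 pairs the median was 83.6% and the highest share 97.3%, in dorDG. The share among all transcripts tested in both regions was lower in 24 of 24 regions, from 49.6 to 73.4%. In the PAG it was 95.2% of DEGs (70% of all transcripts), in the LC 82.4% (63.5%) and in the VTA 82.3% (59.7%). Arc had 3830 calls (26.4%) and MPOA 1449 (9.92%), of which 573 and 339 were raphe DEGs with the raphe's sign. By the methods, 40 rats per group (80 in all) gave the punches, so regions share animals and their values are not independent of each other. Among the genes described here, Gchfr, Spr, Kcna2, Kcnj10, Nr3c2, Jag1, Otub1, Trim28 and Dbp had the raphe's sign in 24 of 24 regions, Gal in 20 of 23, Sirt2 in 10 of 24, Th in 8 of 24 and Htr1a in 6 of the 7 regions where it could be tested. A gene could be named only if the study had called it in several regions of these samples. Agreement between regions among named genes was therefore partly selected for and is not independent evidence.

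**Figure D5:**
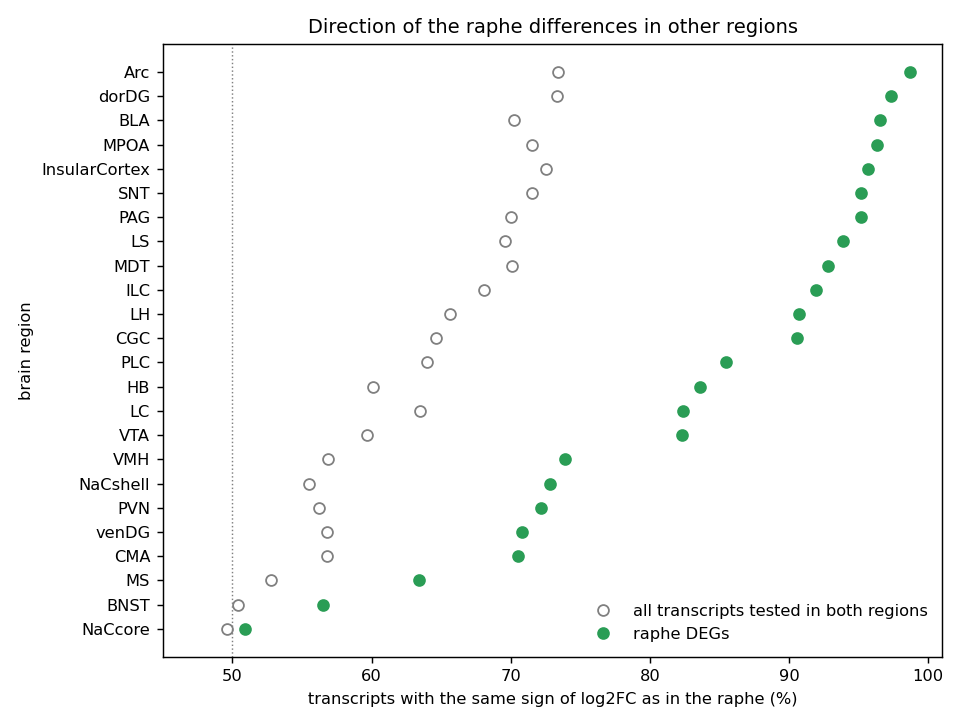
Percentage of transcripts with the same sign of log2FC as in the raphe, in each of 24 other brain regions as labelled by the study. Filled points are raphe DEGs (50.9 to 98.7%) and open points all transcripts tested in both regions (49.6 to 73.4%), and the dotted line marks 50%.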

How the data were processed

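RNA of 8 raphe pools (4 FT and 4 Sham) was measured by paired 76 bp sequencing. The authors deposited raw read counts per Ensembl transcript, made with STAR on rn5 and HTSeq (versions not given in the sources used here), with no normalization. The 5 summary lines of each file were dropped. Ambiguous reads made up 3.18 to 9.45% of each sample, so overlapping transcripts are undercounted. The precision for low transcripts is limited by totals of 5501164 to 15166774 counts. It is lower still in replicate 3, where the top 10 transcripts took 63.3% (FT) and 47.2% (Sham) of the counts.

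Counts were fitted with edgeR 4.0.16 in R 4.3.3, with filterByExpr by treatment (minimum count 10, minimum total 15), TMM factors, the quasi-likelihood test and a block for replicate number. SE was taken as log2FC over the root of the F statistic, without sign. DESeq2 1.42.0 (Wald test, same block) was an alternative. Pair ratios used a prior count of 2. Pairing rests on the study's methods, by which the 2 samples of a replicate went through processing side by side. The deviations of same-numbered samples from their group means had r of 0.62, 0.75, 0.52 and 0.79. Interaction fits had a block per region and replicate. CGC was fitted without replicate 1, and Arc and MPOA with replicates 4 and 5 only. Code was tested on simulated data. P-values of the paired fits measure how the FT to Sham difference varies between pairs of pools, not between rats. Figures were drawn with matplotlib 3.10.9.

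The region, the 32 gene lists and the genes named were chosen with earlier results of these data known. Named are all serotonin and tetrahydrobiopterin list members, the 8 largest rises and 8 largest falls among named DEGs with a mean of at least 1 CPM and one direction in 4 pairs, up to 4 members of each list with the smallest p, and 7 genes that the study names. Other list members that were called, genes that edgeR left untested and the 2 transcripts without names were named after their values were seen. One gene called in a marker list is not reported here.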

Additional observations from a re-analysis of the deposited data

Results flagged for a closer look

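In groups of 4, single samples stood far from the other 3 by Dixon's test at the 95% level, which chance alone does in about 1 of 20 groups. Both groups of many genes were searched, so chance alone would give a number of such samples, and no excess over chance was tested. Most of those found were samples of replicate 3, the pools in which a single transcript took 36.9% (FT) and 29.1% (Sham, itself far from the other Sham samples) of the counts. In the FT sample of replicate 3 these were Kcna2 (7.77 CPM), Ube2g2 (10.7), Btbd2 (9.22), Atp5i (2446), Glra1 (26.7), Pacsin1 (164), Napb (32), Chga (184), Ficd (5.83) and Cds2 (32.5 CPM), all the highest of their group. In the Sham sample of replicate 3 they were Tomm20 (279 CPM), Cs (139), Glra1 (38.6), Tuba1c (1567) and Cds2 (30.2 CPM), also the highest. Mdh2 was high in the FT sample of replicate 1 (1149 CPM), Sap30l in that of replicate 4 (55.4 CPM), and Calcrl was low in the Sham sample of replicate 1 (0.614 CPM).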

How the results depend on the processing

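For the 126 genes chosen by the rule, 0 of 1245 values under the alternatives reversed a call. The sign of 8 values of 6 genes changed, all of genes called neither in edgeR nor under that alternative. Of the 86 called, DESeq2 lost 1, median-ratio size factors and no low-count filter lost 0, and leaving out replicate 1, 3, 4 or 5 lost 66, 8, 84 and 67. With no replicate block, in an unpaired fit, 0 DEGs and 0 list members were called in place of 828 and 118. No low-count filter gave 2115 DEGs and an adjusted p of 0.05 gave 94. Leaving out 1 replicate pair gave 1 to 1029 DEGs and 1 to 160 list members. In fits chosen after seeing the data, pairs 4 and 5 alone gave 2877 DEGs and 312 list members, and pairs 1 and 3 alone 678 and 68. Median-ratio size factors gave 864 DEGs, DESeq2 1225 (171 list members), and no minimum fold 828. The contrast with the PAG gave 0 to 6 transcripts when 1 replicate was left out, and those with the VTA and LC gave 0 in each case. A treatment effect shared by both regions per replicate number gave 0 in all 3 contrasts. The cause of these differences was not tested.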
